A study of Mus musculus with 8 samples.

Results

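The genes described here encode the oxidative phosphorylation system, the chain of protein complexes in the inner mitochondrial membrane that moves electrons to oxygen and makes ATP. They were chosen by name alone, as the loci of the deposited table of TPM, a measure of transcript abundance scaled for length and library size, whose symbols begin with Nduf, Uqcr, Atp5, Cox followed by 4 to 8, mt-Nd, mt-Co, mt-Cytb or mt-Atp, together with Sdha, Sdhb, Sdhc and Sdhd. Of 119 loci with such a name, 15 were left out as copies with -ps in the name and 3 (Cox8c, Cox7b2 and Ndufb11b) were listed at 0 in every library. The other 101, whose average across the 8 libraries reached 0.5 TPM, are the members, out of 55223 loci in the table and 16908 loci tested (0.597%). Nuclear DNA encodes 91 of them, 4 of which have a single exon, and mitochondrial DNA 10. By complex they comprise 42 subunits of complex I, 8 complex I assembly factors, 4 subunits of complex II, 9 of complex III, 21 of complex IV or its close partners and 17 of complex V.

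The cells were muscle stem cells of wild-type female C57BL/6J mice aged 6 to 8 weeks, expanded on Matrigel for 2 days. Every culture, controls included, was then held for 6 h in serum-free medium with 200 ng/ml of the BMPR-IA/ALK3-Fc chimera, a soluble receptor that captures BMPs, before a pulse of 1 h. The pulse was 100 ng/ml BMP6 (2 libraries) with its own vehicle, vehicle_b (2 libraries), in cells of isolations 75 and 77, or 100 ng/ml BMP4 (2 libraries) with vehicle_a (2 libraries) in cells of isolations 48 and 54. Both vehicles were 4 mM HCl with 0.1% BSA, and each isolation gave 1 stimulated and 1 vehicle library. The vehicles therefore differ in the cell isolations and not in their label of treatment, and experiment and isolation cannot be told apart.

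Electrons from NADH enter the chain at complex I and those from succinate at complex II. Ubiquinone carries them to complex III, cytochrome c carries them on to complex IV, and complex V uses the proton gradient built on the way to make ATP. Complex II is encoded in the nucleus alone, while the other complexes combine nuclear and mitochondrially encoded subunits. Quiescent muscle stem cells hold few mitochondria, and myoblasts that differentiate into fibres are known to build more of them and to take up muscle forms of several complex IV subunits.

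The libraries held an estimated 48012825 to 58002740 reads each. Pax7, which marks muscle stem cells, stood at 12.4 and 11.1 TPM in vehicle_b, against 16.9 and 16.7 TPM in vehicle_a, and of 7 stem cell markers 4 were lower and 1 was higher in vehicle_b. The 8 markers of differentiated muscle, among them Myog, Acta1 and Myh3, summed to 568 and 781 TPM in vehicle_b, against 4984 and 16033 TPM in vehicle_a, and 7 of them passed the test as lower in vehicle_b. In isolation 54 these markers thus stood above those of the other isolations, with 16033 TPM in its vehicle library and 15670 TPM in its BMP4 library. Endothelial, immune, erythroid, adipocyte and brown adipocyte markers summed to at most 3.77 TPM per list and library, and Ptprc and Adgre1, which define immune cells, were listed at 0 throughout. The pericyte list summed to 61.2 and 70.8 TPM in vehicle_b, against 738 and 1420 TPM in vehicle_a, most of it Acta2. Cspg4 of the same list had 7.6 and 11.4 TPM in vehicle_b, against 17.0 and 23.3 TPM in vehicle_a. The other genes of this list were low, with Myh11 at most 1.49 TPM and Rgs5 and Kcnj8 below 0.3 TPM in every library. The fibroblast list summed to 16.7 and 13.4 TPM in vehicle_b, against 25.5 and 82.2 TPM in vehicle_a, with Pi16 below 0.05 TPM in every library. Within it Col1a1 had 0.946 and 1.82 TPM in vehicle_b, against 13.8 and 70.2 TPM in vehicle_a (log2 change -4.12, adjusted p = 0.0294), while Ly6a had 15.4 and 10.96 TPM in vehicle_b, against 11.2 and 11.7 TPM in vehicle_a. Pdgfra of this list had 0.19 and 0.30 TPM in vehicle_b, against 0.29 and 0.33 TPM in vehicle_a. Dcn had 0.16 and 0.36 TPM in vehicle_b, against 0.24 and 0 TPM in vehicle_a. Both were too low to be tested. The Schwann cell list summed to 5.202 and 8.38 TPM in vehicle_b, against 6.49 and 11.7 TPM in vehicle_a.

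Across all 8 libraries the mitochondrially encoded loci led the list. The locus that joins mt-Atp8, mt-Atp6 and mt-Co3 averaged 7851 TPM, and mt-Co1, the catalytic core subunit of complex IV, averaged 4108 TPM. Among nuclear members, Atp5b, the catalytic beta subunit of ATP synthase, led with a mean of 1446 TPM, followed by Atp5g3, one of the genes for the membrane ring subunit c, with 719 TPM. The lowest member was Cox4i2, the isoform of subunit IV known from lung, with a mean of 0.579 TPM, just inside the minimum of 0.5 TPM. No named locus lay between that minimum and 0. As shares of the library, all members together held 3.06% and 3.35% of the TPM in BMP6, 3.11% and 3.30% in vehicle_b, 3.29% and 4.56% in BMP4, and 3.55% and 4.24% in vehicle_a.

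Between the vehicles most called members were lower in vehicle_b. There 42 members were lower than in vehicle_a and 2 were higher (limma on log2(TPM + 0.5), Benjamini-Hochberg adjusted p under 0.05 over all loci tested, two-sided). Of all loci tested 16.6% were called lower and 10.6% higher, 27.2% in all. At an unadjusted p under 0.05, 55 members were lower and 2 higher, where 45.2% of all loci passed in either direction. The median log2 change was -0.40 over the members and -0.01 over all loci, and 91 of 101 members had a negative change. Both vehicle_b libraries lay below both vehicle_a libraries in 82 members (81.2%), against 38.8% of all loci, and above both in 6 members (5.94%), against 34.9% of all loci. Counting the stimulated libraries as well, all 4 libraries of isolations 75 and 77 lay below all 4 of isolations 48 and 54 in 68 members (67.3%), against 29.7% of all loci, and above them in 2 (1.98%), against 25.9%. In bulk RNA, fewer cells of a type and less RNA per cell cannot be told apart. The lower level of these genes went with the lower level of the differentiated muscle markers given above, and the part of those cells in it was not tested.

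The calls rest on few libraries. The test between the vehicles sets 2 isolations against 2, with a spread taken from all 8 libraries as if they were independent. Each fit below with libraries left out keeps 1 library in some group, and each also called fewer of all loci than the fit as reported. No member was called without vehicle_a replicate 2, without vehicle_b replicate 1 or without vehicle_b replicate 2, and 11 were called without either BMP6 library, although the median change stayed between -0.43 and -0.30 in these fits. With both libraries of isolation 54 left out, an alternative chosen after seeing the data, 1 vehicle_a library remained. The median log2 change of the members was then -0.30. Cox6a1, Atp5g3, Atp5d, Cox7a1, Sdha, Sdhb, Sdhd, Uqcrfs1 and Uqcrh were among the 22 members that lost their calls in that fit, and the changes of these named members kept their direction. The log2 changes were -0.42 for Cox6a1, -0.46 for Atp5g3 and -0.61 for Atp5d. Cox8b and mt-Nd3, not called in the fit as reported, gained a call in that fit, with log2 changes of -1.30 and 0.42. Quantile normalisation left the members' count at 42 lower and 2 higher, while it divided the calls over all loci into 14.1% higher and 13% lower.

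**Figure D1:**
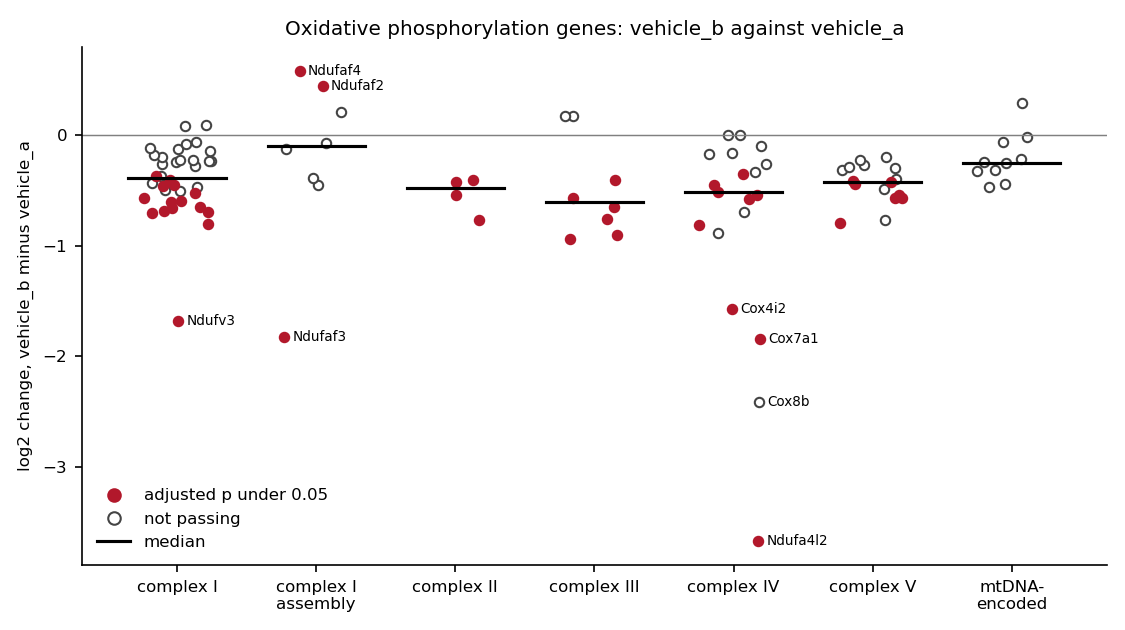
Log2 change of each of the 101 members, vehicle_b minus vehicle_a, by complex (nuclear genes) and for the mitochondrially encoded loci. Filled points passed an adjusted p under 0.05 in limma, open points did not, and bars are medians. Most points lie below 0, and the largest falls are Ndufa4l2, Cox8b (not passing), Cox7a1, Ndufaf3, Ndufv3 and Cox4i2. Ndufa4l2 and Cox4i2 reached the minimum mean of 0.5 TPM only through the BMP4 and vehicle_a libraries.

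Complex I, the entry point for NADH, was lower in vehicle_b in 15 of its 36 nuclear subunits and higher in none, with a median log2 change of -0.39. Their TPM summed to 2325 and 2261 in vehicle_b, against 2857 and 3275 in vehicle_a. The 4 libraries of the vehicles did not overlap in this sum. Ndufv3, an accessory subunit of the matrix arm (chr17:31739089-31750305 in GRCm39), had 16.4 and 14.7 TPM in vehicle_b, against 42.2 and 60.9 TPM in vehicle_a. It fell most within the complex, by 1.68 on the log2 scale (SE 0.30, adjusted p = 0.0165). Ndufs7, a core subunit near the ubiquinone site, had 78.4 and 73.7 TPM in vehicle_b, against 115.0 and 133.2 TPM in vehicle_a (log2 change -0.70, SE 0.13, adjusted p = 0.0179). Ndufs1, an iron-sulfur subunit of the NADH-oxidising module, had 54.9 and 55.4 TPM in vehicle_b, against 79.6 and 100.1 TPM in vehicle_a, a log2 change of -0.69 (SE 0.16, adjusted p = 0.0293). Ndufa11, a membrane subunit, had 58.3 and 60.2 TPM in vehicle_b, against 95.6 and 113.3 TPM in vehicle_a (log2 change -0.81, SE 0.17, adjusted p = 0.0224).

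Ndufv3 is spliced into a short and a long form that differ by 1 long internal exon. The 4-exon transcript, which holds that exon, stood at 4.498 and 5.53 TPM in vehicle_b, against 21.4 and 28.5 TPM in vehicle_a. The 3-exon transcript stood at 11.5 and 8.44 TPM in vehicle_b, against 19.7 and 31.6 TPM in vehicle_a. The long form made up 28.2% and 39.6% of the sum of both in vehicle_b, against 52.2% and 47.4% in vehicle_a, so the libraries of the vehicles did not overlap in this share either. It was 36.3% and 36.6% in BMP6 and 51.6% and 44.8% in BMP4. The transcript levels are the deposited estimates from reads of 50 nt, and this share was not tested.

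The assembly factors of complex I, which build the complex without remaining in it, did not move as a block. Their sum was 107.9 and 108.9 TPM in vehicle_b, against 106.0 and 110.7 TPM in vehicle_a. Ndufaf4, which acts early in assembly together with Ndufaf3, had 16.2 and 16.2 TPM in vehicle_b, against 11.5 and 9.83 TPM in vehicle_a, and was higher by 0.59 on the log2 scale (SE 0.13, adjusted p = 0.0240). Its partner Ndufaf3 went the other way, with 1.86 and 1.74 TPM in vehicle_b, against 5.79 and 10.1 TPM in vehicle_a (log2 change -1.83, SE 0.40, adjusted p = 0.0249). Ndufaf2, a late assembly factor, was the other member that rose, with 29.2 and 31.6 TPM in vehicle_b, against 23.5 and 20.8 TPM in vehicle_a (log2 change 0.45, SE 0.12, adjusted p = 0.0358). The remaining 5 factors, Ndufaf1, Ndufaf5, Ndufaf6, Ndufaf7 and Ndufaf8, did not pass, with log2 changes between -0.45 and 0.21.

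Complex II, succinate dehydrogenase, was the 1 complex whose members all passed, 4 of 4 lower. Sdha, the flavoprotein that oxidises succinate, had 113.6 and 112.8 TPM in vehicle_b, against 140.5 and 163.4 TPM in vehicle_a (log2 change -0.42, SE 0.12, adjusted p = 0.0434). Sdhb, its iron-sulfur partner, changed by -0.40 (SE 0.11, adjusted p = 0.0377), and the membrane anchor Sdhc by -0.54 (SE 0.11, adjusted p = 0.0213). Sdhd, the other anchor, changed most, with 118.8 and 96.8 TPM in vehicle_b, against 166.6 and 201.0 TPM in vehicle_a (log2 change -0.77, SE 0.19, adjusted p = 0.0333). Without isolation 54 Sdha, Sdhb and Sdhd no longer passed, with changes of -0.31, -0.33 and -0.63. Summed over the complex, 389 and 361 TPM in vehicle_b stood against 504 and 585 TPM in vehicle_a.

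Complex III had 6 of 8 nuclear members lower in vehicle_b. Uqcrfs1, the Rieske iron-sulfur protein that takes electrons from ubiquinol (chr13:30724291-30729345 in GRCm39), had 76.9 and 66.0 TPM in vehicle_b, against 119.3 and 157.3 TPM in vehicle_a (log2 change -0.94, SE 0.22, adjusted p = 0.0281). Uqcrh, the hinge protein at the cytochrome c1 side, had 183.0 and 138.4 TPM in vehicle_b, against 276.7 and 321.1 TPM in vehicle_a (log2 change -0.90, SE 0.20, adjusted p = 0.0261). Both genes were lower in each vehicle_b library than in either vehicle_a library. Without isolation 54 neither passed, with changes of -0.74 and -0.80. The core proteins Uqcrc1 and Uqcrc2 fell by 0.76 (SE 0.15, adjusted p = 0.0216) and 0.57 (SE 0.13, adjusted p = 0.0276) on the log2 scale, and the small subunits Uqcr10 and Uqcr11 also passed. Uqcrb and Uqcrq, small subunits near the ubiquinone sites, did not, with log2 changes of 0.18 (adjusted p = 0.190) and 0.17 (adjusted p = 0.324). The sum over the 8 nuclear members, which leaves out mt-Cytb, was 1118 and 1039 TPM in vehicle_b, against 1449 and 1618 TPM in vehicle_a.

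In complex IV, cytochrome c oxidase, 9 of 19 nuclear members were lower in vehicle_b and none was higher. Several of its subunits exist as pairs of genes, 1 used in most tissues and 1 restricted to few. Ndufa4l2, a gene induced by low oxygen and the paralog of the complex IV partner Ndufa4 (chr10:127350836-127353023 in GRCm39), had 0.171 and 0.349 TPM in vehicle_b, against 5.68 and 14.6 TPM in vehicle_a. It was nearly absent from the vehicle_b libraries, with the lowest fold of all members, 0.0256 in the ratio of the means, and a log2 change of -3.68 (SE 0.55, adjusted p = 0.0110). Its paralog Ndufa4 had 260.9 and 231.4 TPM in vehicle_b, against 271.0 and 279.0 TPM in vehicle_a, and did not pass (log2 change -0.16, SE 0.15, adjusted p = 0.426).

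Among the isoforms of heart and skeletal muscle, Cox7a1 (chr7:29883569-29885503 in GRCm39) had 3.55 and 1.87 TPM in vehicle_b, against 8.38 and 13.4 TPM in vehicle_a (log2 change -1.84, SE 0.41, adjusted p = 0.0254). Without isolation 54 its change was -1.52 and it no longer passed. Cox8b had 1.504 and 1.65 TPM in vehicle_b, against 4.60 and 23.4 TPM in vehicle_a. The vehicle_a libraries lay far apart, and the log2 change of -2.41 did not pass (SE 0.92, adjusted p = 0.0908). Without isolation 54, which leaves 1 vehicle_a library, the change was -1.30. Cox6a2, the third muscle isoform, was the most abundant of them, with 21.3 and 27.1 TPM in vehicle_b, against 31.6 and 48.5 TPM in vehicle_a (log2 change -0.69, SE 0.31, adjusted p = 0.133). The common partners stayed far above them: Cox7a2 had 136.4 and 121.4 TPM in vehicle_b, against 189.5 and 195.2 TPM in vehicle_a (log2 change -0.58, SE 0.11, adjusted p = 0.0195), while Cox8a changed by -0.33 (SE 0.11, adjusted p = 0.0627). Cox6a1 and Cox6b1, further common subunits, changed by -0.54 (SE 0.13, adjusted p = 0.0298) and -0.81 (SE 0.15, adjusted p = 0.0182).

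As a share of each pair, Cox7a1 made up 2.53% and 1.52% in vehicle_b, against 4.24% and 6.44% in vehicle_a. Cox8b made up 0.343% and 0.404% in vehicle_b, against 0.920% and 3.97% in vehicle_a. Ndufa4l2 made up 0.0654% and 0.150% in vehicle_b, against 2.05% and 4.97% in vehicle_a. In these 3 pairs the restricted isoform held a smaller share in both vehicle_b libraries than in either vehicle_a library. In the Cox6a pair the libraries overlapped, with Cox6a2 at 6.24% and 8.19% in vehicle_b and at 7.03% and 8.91% in vehicle_a. Cox4i2 was listed at 0.202 TPM and at 0 in vehicle_b, against 1.49 and 1.06 TPM in vehicle_a (log2 change -1.57, SE 0.24, adjusted p = 0.0116). Cox6b2, the testis isoform, had 0.351 and 0.842 TPM in vehicle_b, against 1.68 and 1.28 TPM in vehicle_a, and did not pass (adjusted p = 0.105). At these levels the added 0.5 TPM sets much of the log2 change. Cox4i2 and Ndufa4l2 lay below 0.5 TPM in both vehicle_b libraries. They reached the minimum mean of 0.5 TPM only through the BMP4 and vehicle_a libraries. Such loci could enter the test only with higher values there, and both count among the 42 lower members.

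**Figure D2:**
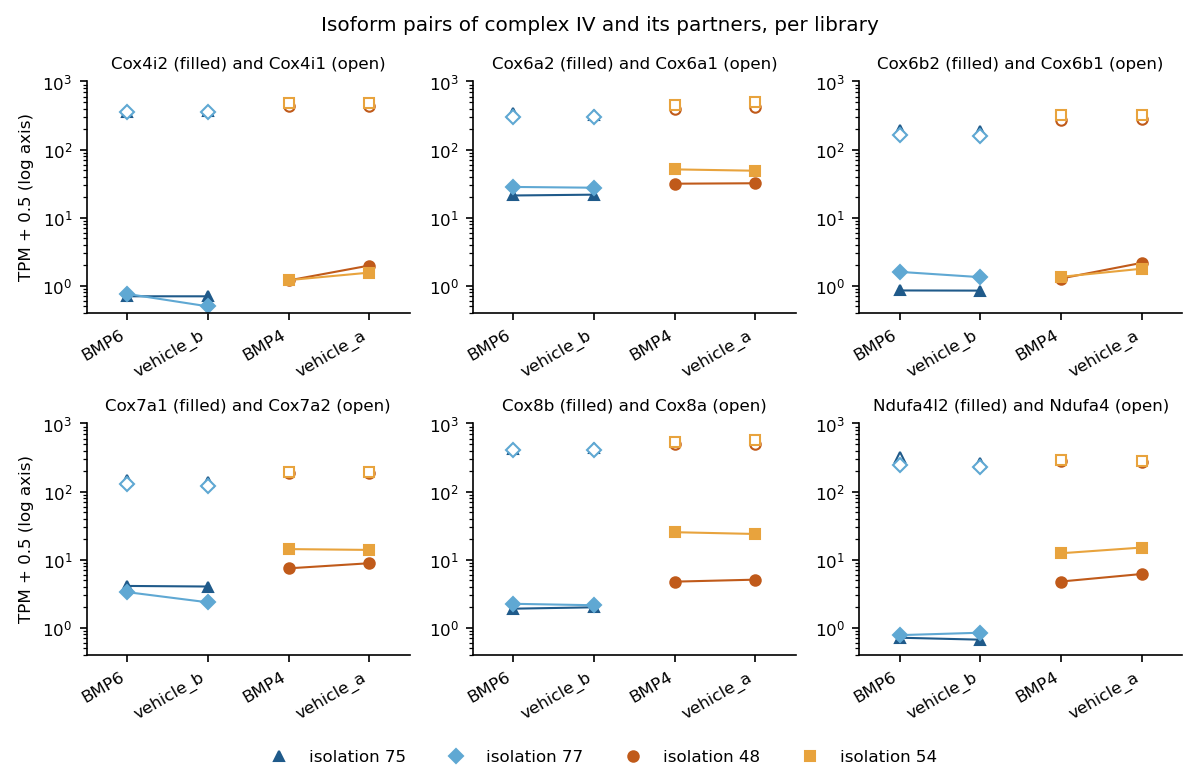
TPM + 0.5 on a log axis for 6 isoform pairs in each library, with the restricted isoform filled and joined within its isolation, and the common isoform open. The restricted isoforms Ndufa4l2, Cox8b and Cox7a1 are lower in isolations 75 and 77 than in 48 and 54, and the common isoforms lie above 100 TPM in all libraries.

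Complex V, the ATP synthase, was lower in vehicle_b in 7 of 16 nuclear members, and all 16 changes were negative (median -0.42). Atp5a1, the alpha subunit, had 481.0 and 463.6 TPM in vehicle_b, against 651.4 and 749.1 TPM in vehicle_a (log2 change -0.56, SE 0.12, adjusted p = 0.0222). Atp5b, the beta subunit, changed by -0.31 and did not pass (SE 0.10, adjusted p = 0.0557), with 1269 and 1303 TPM in vehicle_b, against 1510 and 1694 TPM in vehicle_a. Both vehicle_b libraries were thus below both vehicle_a libraries for the alpha and for the beta subunit. Atp5d, the delta subunit of the central stalk, changed by -0.79 (SE 0.22, adjusted p = 0.0433). Subunit c of the proton-driven ring is encoded by 3 genes with the same mature product. Atp5g3 changed by -0.57 (SE 0.15, adjusted p = 0.0386), Atp5g1 by -0.76 (SE 0.25, adjusted p = 0.0648) and Atp5g2 by -0.20 (SE 0.11, adjusted p = 0.221). Atp5g3 made up 57.2% and 52.7% of the 3 in vehicle_b, against 57.5% and 60.3% in vehicle_a. The sum over the nuclear genes of complex V was 4816 and 4656 TPM in vehicle_b, against 5960 and 6704 TPM in vehicle_a. Atpif1, the inhibitor that blocks reverse rotation of the synthase and is no member by name, had 99.4 and 87.2 TPM in vehicle_b, against 94.4 and 99.3 TPM in vehicle_a (log2 change -0.06, SE 0.15, adjusted p = 0.798).

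Members fell at all levels of abundance. Of the 47 nuclear members above 100 TPM 27 were lower, of the 31 members between 20 and 100 TPM 11 were lower and 1 higher, and of the 13 members under 20 TPM 4 were lower and 1 higher. The median log2 change was -0.42, -0.43 and -0.45 in these ranges. Summed over all nuclear members, vehicle_b held 11823 and 11298 TPM, against 14427 and 16258 TPM in vehicle_a, a ratio of the means of 0.753. The loci that join Atp5o, Ndufa13, Ndufb2, Ndufb8 or Ndufb9 to a neighbouring gene under the name of that neighbour are no members. The largest, Atp5o with Donson, had 274 and 234 TPM in vehicle_b, against 380 and 436 TPM in vehicle_a.

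**Figure D3:**
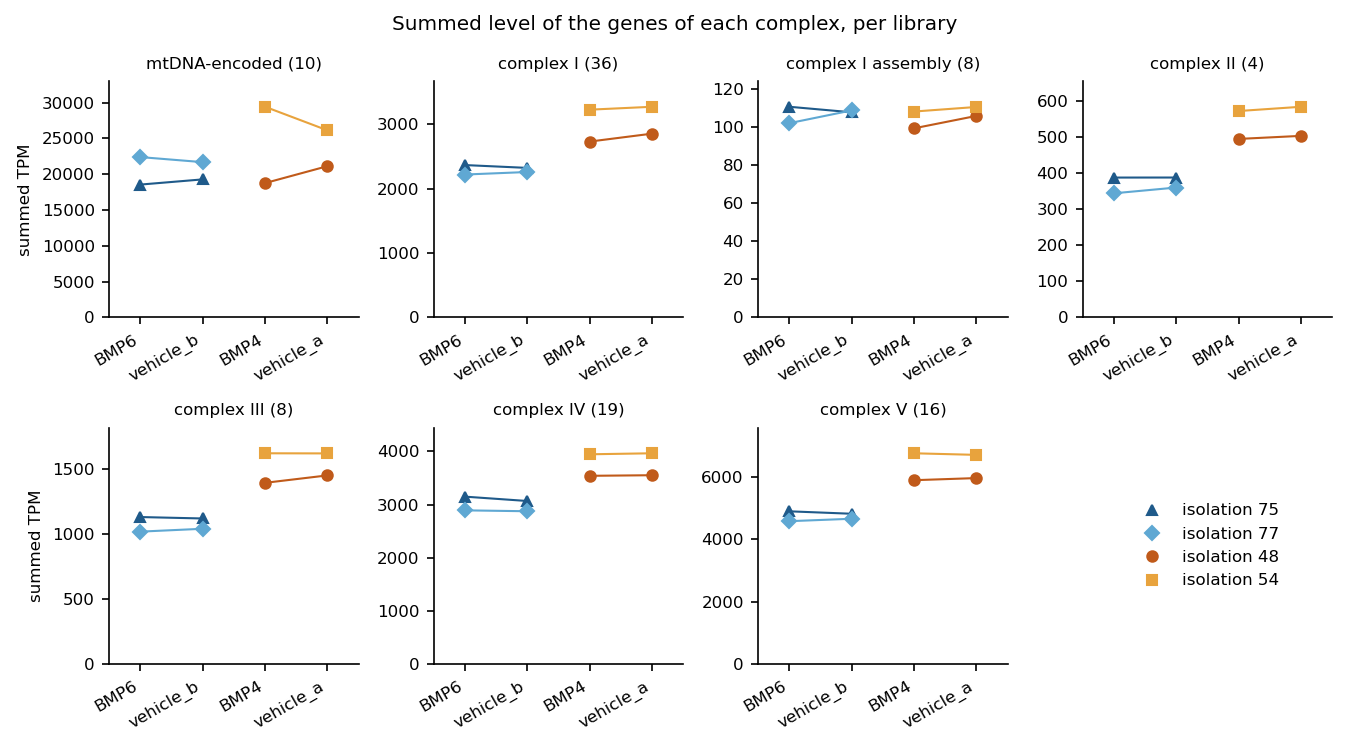
Summed TPM of the members of each complex in each library (nuclear genes, number in brackets) and of the mitochondrially encoded loci, with lines joining the libraries of 1 isolation. Complexes I to V are lower in isolations 75 and 77 than in 48 and 54, while the assembly factors and the mitochondrially encoded loci overlap.

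None of the 10 mitochondrially encoded loci passed in this comparison (smallest adjusted p = 0.216), where 27.2% of all loci did. Their SEs were larger (median 0.28, against 0.13 for nuclear members). Both vehicle_b libraries lay below both vehicle_a libraries in 5 of 10, against 77 of 91 nuclear members and 38.8% of all loci. With the stimulated libraries included, 0 of 10 separated isolations 75 and 77 from 48 and 54. Of all loci 29.7% lay below and 25.9% above by that rule. The difference between nuclear and mitochondrially encoded members was not tested. Their sum was 19274 and 21678 TPM in vehicle_b, against 21117 and 26123 TPM in vehicle_a. mt-Co1 had 3465 and 3858 TPM in vehicle_b, against 4402 and 4749 TPM in vehicle_a (log2 change -0.32, SE 0.26, adjusted p = 0.358), and mt-Cytb, the cytochrome b of complex III, changed by -0.31 (SE 0.22, adjusted p = 0.305). The complex I subunit mt-Nd3 was the only one of the 10 with a positive change, with 946 and 895 TPM in vehicle_b, against 686 and 827 TPM in vehicle_a (log2 change 0.29, SE 0.17, adjusted p = 0.216). Without isolation 54, which leaves 1 vehicle_a library, its change was 0.42. mt-Nd1, mt-Nd2, mt-Nd4l, mt-Nd5 and mt-Co2 changed by -0.44, -0.24, -0.25, -0.47 and -0.22, and mt-Atp8 by -0.06. mt-Nd6, which lies on the other strand within the annotated span of mt-Nd5, averaged 0.987 TPM and changed by -0.02. The mt-Atp8 and mt-Nd4l loci join overlapping or adjoining genes, so how reads divide within them is uncertain. How reads divide between mt-Nd5 and mt-Nd6 is uncertain too, since the estimates set no strand.

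**Figure D4:**
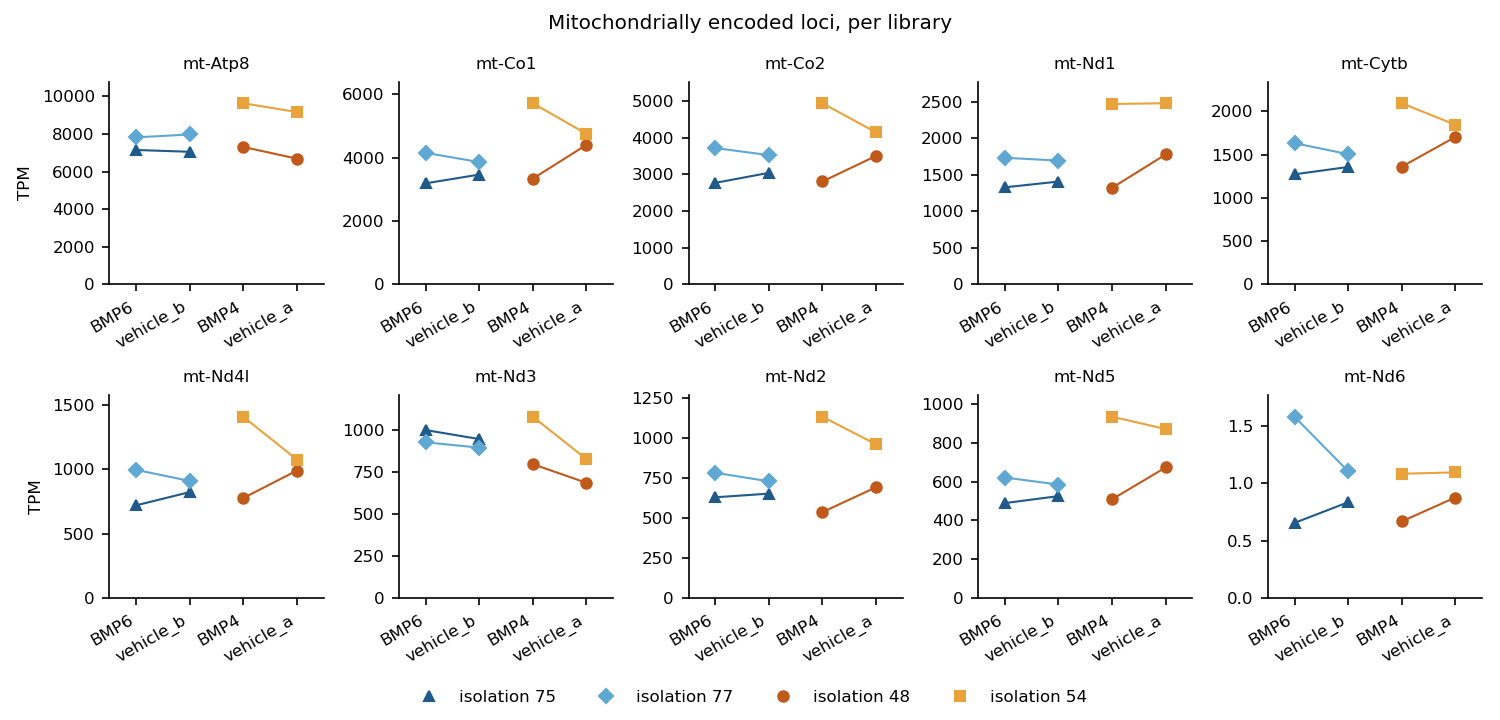
TPM of the 10 mitochondrially encoded loci in each library, ordered by mean level, with lines joining the stimulated and vehicle library of 1 isolation. Isolation 54 lies above isolation 48 in all 10, and the lines of isolations 48 and 54 slope in opposite directions in most panels.

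Genes that work beside the chain were read from lists. Beside the counts below stand the shares of all loci tested, 16.6% called lower and 10.6% higher in vehicle_b, 27.2% in all. Of the tricarboxylic acid cycle and the pyruvate dehydrogenase complex, which supply its electrons, 8 of 16 genes were lower in vehicle_b and none was higher. Ogdh, a subunit of the 2-oxoglutarate dehydrogenase complex, had 45.9 and 38.1 TPM in vehicle_b, against 68.2 and 83.4 TPM in vehicle_a (log2 change -0.84, SE 0.17, adjusted p = 0.0213). Suclg1 of succinyl-CoA ligase and Mdh2, the mitochondrial malate dehydrogenase, were among the others that fell, by 0.71 and 0.55 on the log2 scale. Of electron carriers and coupling proteins 5 of 17 were lower: Cyc1, the cytochrome c1 of complex III, with a change of -0.35 (SE 0.09, adjusted p = 0.0397), the flavoproteins Etfa and Etfb, the muscle form of the ADP/ATP carrier Slc25a4, and Ucp2. Cycs, cytochrome c itself, had 129.9 and 134.0 TPM in vehicle_b, against 109.7 and 116.9 TPM in vehicle_a, and did not pass (log2 change 0.22, SE 0.09, adjusted p = 0.111). In the lists of further assembly factors, 0 of 8 for complex I (Acad9, Ecsit, Foxred1 and others, apart from the Ndufaf genes above), 1 of 4 for complex II (Sdhaf1, lower), 0 of 6 for complex III, 3 of 21 for complex IV (Coa3 and Cox17 lower, Cmc1 higher) and 0 of 4 for complex V passed.

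Of 18 genes for transcription and biogenesis of mitochondria, 3 were lower and 2 higher in vehicle_b, shares close to the 16.6% lower and 10.6% higher among all loci. Esrra, a nuclear receptor that drives genes of oxidative metabolism, had 13.1 and 10.3 TPM in vehicle_b, against 22.7 and 25.4 TPM in vehicle_a (log2 change -1.02, SE 0.17, adjusted p = 0.0146). Its coactivator Ppargc1b had 5.65 and 6.54 TPM in vehicle_b, against 10.1 and 14.1 TPM in vehicle_a (log2 change -0.92, SE 0.21, adjusted p = 0.0281). Both lay lower in each vehicle_b library than in either vehicle_a library, as did Polrmt, the mitochondrial RNA polymerase, with 17.5 and 16.1 TPM in vehicle_b, against 22.2 and 23.1 TPM in vehicle_a (log2 change -0.42, SE 0.11, adjusted p = 0.0370). The mitochondrial transcription factor Tfb2m (log2 change 0.57, SE 0.12, adjusted p = 0.0222) and the mitochondrial ribosome factor Mterf3 (log2 change 0.80, SE 0.21, adjusted p = 0.0381) were higher in vehicle_b. Nrf1 changed by 0.62 (SE 0.20, adjusted p = 0.0598), Gabpa by 0.17 (adjusted p = 0.200) and Tfam by 0.41 (SE 0.14, adjusted p = 0.0702), none of which passed. Ppargc1a lay between 0.283 and 0.685 TPM in all libraries.

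Promoters of these genes are printed to show the binding motifs of such regulators in members that moved in opposite directions or were restricted to muscle. Each is the 250 bases before the RefSeq start site in GRCm38.p6, a different build from the gene coordinates above, on the strand of the gene, and capitals mark exact motif matches. Ndufa11 (lower in vehicle_b) is at chr17:56717512-56717761 on the plus strand, Ndufaf4 (higher) at chr4:24897833-24898082 on the plus strand, Cox7a1 (lower) at chr7:30183921-30184170 on the plus strand, Cox8b at chr7:140900447-140900696 on the minus strand and Atp5g3 (lower) at chr2:73911327-73911576 on the minus strand.
Ndufa11: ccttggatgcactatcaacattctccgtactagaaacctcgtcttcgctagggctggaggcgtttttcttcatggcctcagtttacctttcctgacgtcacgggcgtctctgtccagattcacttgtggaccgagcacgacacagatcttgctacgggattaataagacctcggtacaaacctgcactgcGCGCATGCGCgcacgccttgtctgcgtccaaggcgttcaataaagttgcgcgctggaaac
Ndufaf4: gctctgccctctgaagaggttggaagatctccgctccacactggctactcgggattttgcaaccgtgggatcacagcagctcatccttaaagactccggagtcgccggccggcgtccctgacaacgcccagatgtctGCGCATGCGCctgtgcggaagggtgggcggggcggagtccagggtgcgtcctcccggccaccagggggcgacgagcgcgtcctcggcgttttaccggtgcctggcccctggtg
Cox7a1: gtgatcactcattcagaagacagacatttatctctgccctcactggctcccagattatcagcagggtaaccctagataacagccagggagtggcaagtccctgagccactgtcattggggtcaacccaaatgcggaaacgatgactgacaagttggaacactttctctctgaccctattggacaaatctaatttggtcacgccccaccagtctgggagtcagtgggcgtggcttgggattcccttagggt
Cox8b: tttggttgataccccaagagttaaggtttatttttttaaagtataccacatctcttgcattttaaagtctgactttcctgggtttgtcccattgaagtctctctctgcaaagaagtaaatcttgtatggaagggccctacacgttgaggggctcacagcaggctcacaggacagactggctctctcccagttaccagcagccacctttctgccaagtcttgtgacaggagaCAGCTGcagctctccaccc
Atp5g3: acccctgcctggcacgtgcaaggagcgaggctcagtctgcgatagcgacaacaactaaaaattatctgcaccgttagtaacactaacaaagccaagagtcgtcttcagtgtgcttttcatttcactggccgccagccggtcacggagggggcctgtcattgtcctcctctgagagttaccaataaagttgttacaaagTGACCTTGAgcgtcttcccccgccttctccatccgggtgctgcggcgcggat
Ndufa11 and Ndufaf4, which moved in opposite directions, both hold the NRF1 palindrome, the capitals in each, from base 60 to 51 before the start site in Ndufa11 and from base 113 to 104 in Ndufaf4. Cox8b holds the E-box CAGCTG, the core bound by myogenic factors, from base 19 to 14 before the start site. Atp5g3 holds the reverse complement TGACCTTGA of the ERR half-site TCAAGGTCA, the motif of Esrra, from base 52 to 44, and Cox7a1 holds none of the motifs searched in this window. Cox7a1 and Cox8b hold 4 and 1 CG dinucleotides, against 20 in Ndufa11, 23 in Ndufaf4 and 15 in Atp5g3.

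RefSeq promoters were found for 72 of 101 members, and motifs were searched on both strands as exact letters. The NRF1 palindrome was in 5 of these 72 (6.94%), against 0.877% of 27025 genes with a promoter. The ETS motif CCGGAAGT, bound by GABPA, was in 3 (4.17%), against 3.23% of all genes. The YY1 motif and the ERR half-site were in 1 each (1.39%), against 0.359% and 0.422%, and the E-box CAGCTG in 6 (8.33%), against 14.7%. Of the 33 members with a promoter that were lower in vehicle_b, 3 held the NRF1 palindrome, and of the 2 that were higher, 1 did. No motif overlapped another in the 5 promoters printed.

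Some members have processed copies whose reads the deposited estimates may divide from the parent gene. Ndufab1-ps stood at 260% of the mean TPM of Ndufab1, Ndufa12-ps at 158% of Ndufa12 and Cox5b-ps at 110% of Cox5b. Ndufs5-ps stood at 95.7% of Ndufs5, Atp5l2-ps at 94.2% of Atp5l, Atp5pb-ps at 87.8% of Atp5pb and Cox7c-ps1 at 52.0% of Cox7c, and further copies of Atp5l, Uqcrh, Atp5k and Atp5c1 were present at lower shares. The levels of these parent genes are uncertain. Single-exon loci without -ps in the name were kept as members, among them Ndufa11b, Ndufb4c and Ndufs6b, which are counted to complex I. Ndufb4c averaged 100.6 TPM, against 43.4 TPM for Ndufb4. Whether these loci are copies was not tested.

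Within an experiment the isolations also differed. Members were higher in isolation 54 than in isolation 48 in both the BMP4 and the vehicle_a library in 86 of 101 cases (85.1%), against 35.1% of all loci, mitochondrially encoded members in 10 of 10. Isolation 77 was below isolation 75 in both the BMP6 and the vehicle_b library in 59 members (58.4%), against 42.1% of all loci. Nuclear and mitochondrially encoded members then parted, since 58 of 91 nuclear members were lower in isolation 77 and 9 of 10 mitochondrially encoded members were higher. Isolation 77 was above 75 in both libraries in 21 of all 101 members (20.8%), against 32.1% of all loci. Each isolation is 1 culture pair, so these are descriptions of single isolations with no test.

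A pulse of 1 h with BMP6 or BMP4 changed no member at the threshold. For BMP6 against vehicle_b, 0 of 101 members were called by limma without a term for the isolation, where 0.0118% of all loci were called, and 0 with the isolation as a block, where 0.148% were called. For BMP4 against vehicle_a, 0 members were called in either fit, where 0.0237% and 0.633% of all loci were called. At an unadjusted p under 0.05 there were 0 members for either ligand without the block, and 4 for BMP6 and 11 for BMP4 with it. All loci passed that level in 1.26% (BMP6) and 3.31% (BMP4) of cases without the block, and in 5.72% and 20.3% with it. By voom on estimated reads with the block, 0 members were called for BMP6 and 2 for BMP4, where 0.432% and 6.15% of all loci were called.

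The members' median log2 change was -0.001 for BMP6 and -0.017 for BMP4. On the log2 scale the summed TPM of nuclear members changed with BMP6 by 0.03 (isolation 75) and -0.02 (isolation 77), and with BMP4 by -0.03 (isolation 48) and -0.002 (isolation 54). Stimulated libraries were higher in both isolations in 25 members for BMP6 and 22 for BMP4 (24.8% and 21.8%, against 26.7% and 28.3% of all loci), and lower in both in 17 and 36 members (16.8% and 35.6%, against 27.1% and 35% of all loci). Ndufb6, mt-Nd3, Cox7c and Ndufa4 were higher in the stimulated library of all 4 isolations, and Ndufv1, Sdhb and Atp5g2 were lower in all 4. These 7 genes are 4 and 3 of 101 (3.96% and 2.97%), against 8.19% and 9.20% of all loci.

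**Figure D5:**
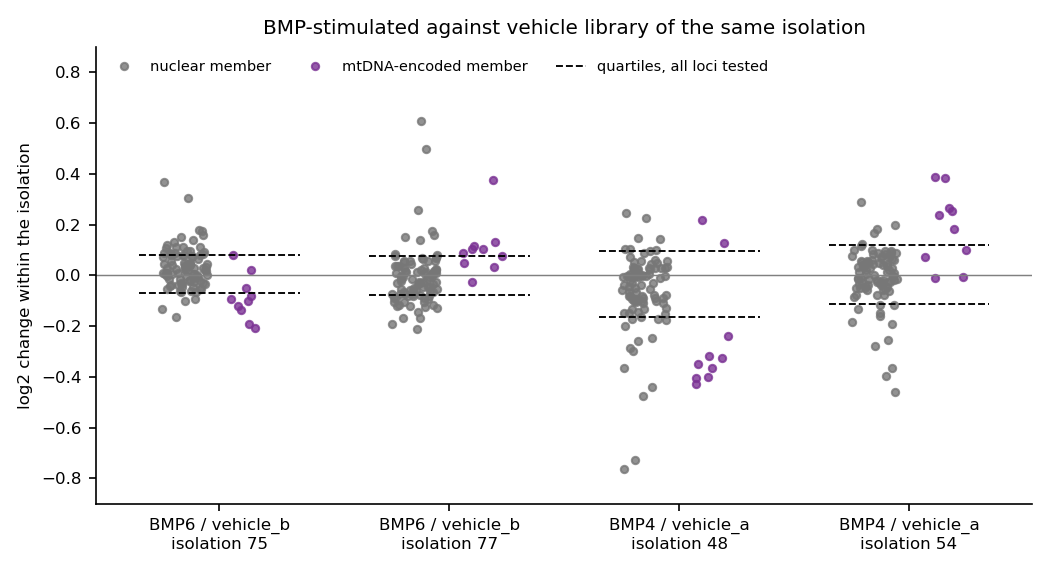
Log2 change of each member, stimulated against vehicle library of the same isolation, for nuclear (grey) and mitochondrially encoded members (purple). Dashed lines are the quartiles over all loci tested. Most nuclear members lie within the quartiles, and the mitochondrially encoded members lie mostly below 0 in isolations 75 and 48 and mostly above 0 in isolations 77 and 54.

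Mitochondrially encoded members moved together within an isolation but in opposite directions between the isolations of each ligand. With BMP6, 8 of 10 were lower in isolation 75 and 9 of 10 higher in isolation 77, and with BMP4, 8 of 10 were lower in isolation 48 and 8 of 10 higher in isolation 54. Their summed TPM changed by -0.06 and 0.05 on the log2 scale in isolations 75 and 77, and by -0.17 and 0.17 in isolations 48 and 54. mt-Nd3 was higher in the stimulated library of all 4 isolations. It had 999.6 and 926.7 TPM in BMP6, against 946.0 and 895.1 TPM in vehicle_b, and 796.6 and 1079 TPM in BMP4, against 685.6 and 826.7 TPM in vehicle_a. Its log2 change with BMP4 was 0.30 in both fits, with an adjusted p of 1.00 without the block and 0.0838 with it (SE 0.17 and 0.05). By voom with the block it passed, as did Atp5d in the other direction.

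Atp5d, the delta subunit, had 227.7 and 297.4 TPM in BMP4, against 256.7 and 332.0 TPM in vehicle_a, a log2 change of -0.17 (SE 0.03, adjusted p = 0.101 with the block). It was lower in the BMP4 library of both isolations, by 0.17 and 0.16 on the log2 scale. In BMP6 it had 192.8 and 149.8 TPM, against 191.9 and 147.9 TPM in vehicle_b. Ndufs7 changed by -0.17 with BMP4 (SE 0.05, adjusted p = 0.153 with the block) and by 0.09 with BMP6 (adjusted p = 0.964). Cox4i2 and Cox6b2, both under 2 TPM, had the largest changes with BMP4, -0.55 (SE 0.24) and -0.58 (SE 0.36), with an adjusted p of 1.00 each without the block. With the block that of Cox6b2 was 0.167.

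For BMP6 the smallest adjusted p among members with the block was that of Ndufa4, 0.806. Ndufa4 had 322.6 and 242.4 TPM in BMP6, against 260.9 and 231.4 TPM in vehicle_b (log2 change 0.19, SE 0.06). The subunit c genes moved in different directions with values short of the threshold: Atp5g1 had 156.2 and 104.5 TPM in BMP6, against 120.8 and 92.6 TPM in vehicle_b (log2 change 0.27, SE 0.10, adjusted p = 0.865 with the block), and Atp5g2 had 308.8 and 354.7 TPM, against 345.9 and 385.7 TPM (log2 change -0.14, SE 0.05, adjusted p = 0.828). As a share of the 3 genes Atp5g1 made up 14.2% and 10.6% in BMP6, against 11.1% and 9.15% in vehicle_b, and 11.8% and 14.98% in BMP4, against 12.6% and 12.2% in vehicle_a. Cox7a2 (log2 change 0.10, adjusted p = 0.809) and Atp5k (log2 change -0.10, adjusted p = 0.891) were the other members among the 5 with the smallest p in this fit.

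The responses to the ligands were also compared with each other, as the BMP6 change minus the BMP4 change. No member passed in either fit (smallest adjusted p = 0.301 with the block, Atp5d), and neither did any of the 16908 loci (0%). At an unadjusted p under 0.05 there was 1 member without the block and 9 with it, where 1.44% and 13.3% of all loci passed, and voom with the block called 0 members and 0.177% of all loci. The mean of the responses gave 0 members in both fits, where 0.071% and 0.674% of all loci were called, with 0 and 5 members at an unadjusted p under 0.05, where 2.4% and 13.4% of all loci passed. Voom with the block called mt-Nd3 alone, at a log2 change of 0.18, where 2.05% of all loci were called.

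Outside the members, no gene of the pathway lists passed for either ligand with the block. Ppargc1b had 6.81 and 9.15 TPM in BMP4, against 10.1 and 14.1 TPM in vehicle_a, lower in both isolations, with a log2 change of -0.57 (SE 0.06, adjusted p = 0.0509 with the block). Esrra had 18.5 and 20.5 TPM in BMP4, against 22.7 and 25.4 TPM in vehicle_a (log2 change -0.29, SE 0.05, adjusted p = 0.0915 with the block), and Polrmt had 17.8 and 18.3 TPM, against 22.2 and 23.1 TPM (log2 change -0.32, SE 0.05, adjusted p = 0.0770). With BMP6 the same genes changed by 0.07, 0.09 and 0.01 on the log2 scale, none of them passing. The difference between the ligands for Ppargc1b was 0.63 (SE 0.09, adjusted p = 0.235 with the block). The other regulators and carriers named by the rule did not fall with BMP4. Nrf1, Gabpa, Tfam, Ppargc1a and Cycs changed by 0.02, 0.10, 0.02, 0.07 and 0.13 on the log2 scale, none of them passing. Over the 18 genes for transcription and biogenesis the median log2 change with BMP4 was 0.007.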

How the data were processed

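RNA of 8 cultures was sequenced as strand-specific poly(A) libraries from 500 ng of RNA with single-end reads of 50 nt, per the labels' protocols. The TPM and FPKM values were deposited by the authors per locus and library, made with StringTie 2.2.1 per the file headers from reads handled, per the submitters' processing notes, with STAR 2.7.11a and SAMtools 1.17 on GRCm39. The deposited coverage is read depth per base, per the file headers. The StringTie command, per the file headers, set no strand and did not correct for multi-mapping reads, so overlapping genes and copies can share reads.

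Values were tested with limma 3.58.1 (R 4.3.3) on log2(TPM + 0.5), a scale that understates changes of low genes, over the 16908 loci averaging 0.5 TPM or more. The fit held 4 group means over all 8 libraries, with a trended prior and two-sided Benjamini-Hochberg adjusted p under 0.05 over all loci. Groups hold 2 libraries each. Isolations pair the libraries by the labels, and same-isolation deviations correlated at 0.707 (48 and 54) and 0.455 (75 and 77), so the BMP comparisons were also fitted with the isolation as a block. The main fit between the vehicles had no such term and took its spread from all 8 libraries as if they were independent. Libraries of 1 isolation had a consensus correlation of 0.829. The p-values between the vehicles thus leave the pairing out, and they set 2 isolations against 2. Reads were estimated as coverage times length over read length for depth and voom, and TMM factors were computed with own code. The fits were tested on simulated data for BMP4 against vehicle_a alone, and the comparison between the vehicles was not simulated.

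The members and gene lists were chosen with earlier results of these data known. Named were the 10 most abundant members, isoform pairs, mitochondrially encoded and complex II members, and per comparison up to 10 called members with the largest change or else the 5 with the smallest p per fit. Of the lists, called genes and 8 regulators or carriers were named, except some that are not reported here. Further members were named to describe each complex after their values were seen.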

Additional observations from a re-analysis of the deposited data

How the results depend on the processing

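Between the vehicles, the count of 44 called members (42 lower, 2 higher) fell to 16 with no filter on low values, 27 with FPKM in place of TPM, 25 with voom on estimated reads, 21 with only the groups compared and 26 without isolation 54, the last chosen after seeing the data. With FPKM 25 members were lower and 2 higher, where 2305 of all loci were lower and 2073 higher. With voom 23 members were lower and 2 higher, where 2223 of all loci were lower and 1981 higher. In both, the share of members called in either direction was close to that of all loci, with an excess only among lower calls. With only the groups compared 21 members and 1914 loci were lower, and 0 and 965 higher. With no filter 15 members and 1609 loci were lower, and 1 and 881 higher. The other alternatives called 35 to 45 members, among them 45 with the isolation as a random replicate block. Leaving out 1 library at a time gave 0 to 50. For BMP4 and for the mean of the responses, the replicate block with voom called 2 members and 1 member, where the fits as reported called 0. The replicate block changed no other BMP count, and leaving out 1 library gave 0 in each BMP comparison. Of the alternative values of single named genes between the vehicles, 116 lost their call, 16 gained one and none changed sign while called. With 2 libraries a group, the smallest differences cannot be resolved, and the cause of the lost calls was not tested.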
